A study of Mus musculus with 15 samples.

Results

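The genes described here are the interleukins and interleukin receptors of the mouse colon outside the IL-1 and IL-10 families. They were chosen by symbol, as every gene whose annotated symbol starts with Il and a digit, leaving out the IL-1 family (with *Il18* and *Il33*) and the IL-10 family (*Il10*, *Il19*, *Il20*, *Il22*, *Il22ra1*, *Il24* and the IL-10 receptor genes). Of 76 genes with such a symbol, 50 remained, measured by 72 of the 44290 features of the array. The 50 are those that passed the filter on missing values, and they stand among 19076 genes tested. By their known roles they hold 23 ligands, 25 receptor chains, 1 soluble decoy receptor (*Il22ra2*) and 1 enzyme (*Il4i1*), which the symbol brings in although it is neither a ligand nor a receptor.

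Colon RNA came from 15 male mice, 1 mouse on each two-colour array. At 7 weeks the arrays held 4 C57 animals (numbered 43 to 46) and 3 *Il10*-/- animals (75, 77 and 78), and at 12 weeks 4 C57 (63 to 66) and 4 *Il10*-/- animals (92, 94, 95 and 96). The C57 mice were C57BL/6J and the *Il10*-/- mice carried the tm1Cgn allele on that background. All mice of both genotypes had been given an oral mixture of *Enterococcus* strains and gut bacteria soon after arrival, were housed singly, and C57 mice were fed to the intake of *Il10*-/- mice. Mice lacking *Il10* develop colitis with age. The authors chose all 15 arrays by colon histology, with moderate colitis in *Il10*-/- mice of 12 weeks and none in the other groups. *Il10*-/- mice of 7 weeks that already had colon inflammation were kept off the arrays. Genotype and age were taken from the sample titles, because another label gives all arrays 1 strain and 1 age.

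Interleukins are secreted proteins through which T cells, other leukocytes, epithelium and stroma direct each other, and most act through pairs or trios of receptor chains that several ligands share. The chains *Il2rg*, *Il6st* and *Il12rb1* each serve a family of ligands, and the chain *Il4ra* binds IL-4 and, paired with *Il13ra1*, both IL-4 and IL-13. Signals pass through Janus kinases to STAT factors, which in turn induce SOCS inhibitors. In the gut the IL-17 and IL-12/IL-23 families are best known for defence against bacteria and for colitis, and IL-4 and IL-13 for responses to worms and in mucosal repair. *Il12b*, *Il2rg*, *Il11ra1* and *Il11ra2* were not analysed here.

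Each value is the log2 ratio of a colon over a reference pool (small intestine, colon, kidney, liver and fetuses of Swiss mice), so 0 means the level of the pool, and a difference of 1 between groups is a doubling. Between 41687 and 42147 features had a value on an array, array medians lay from −0.01 to 0.00, and 8 liver genes had array medians of −3.70 to −2.90, as colon over a pool with liver would give. *Il10* itself was not lower in the mice labelled *Il10*-/-: its level ran from −0.17 to 0.18 in C57 mice, with 2 of 8 above the pool, and from 0.01 to 0.25 in *Il10*-/- mice, with 7 of 7 above (0.14 ± 0.08 at 7 weeks, limma adjusted p = 0.37, and 0.13 ± 0.08 at 12 weeks, adjusted p = 0.36). Where its feature lies against the deleted stretch is not given in the sources used here, so it does not check the genotype. Of 6 epithelial markers, *Cdx2*, *Cdh1* and *Epcam* were above the pool in all 15 mice and *Vil1* in 10. *Krt8* in 15 mice, *Krt20* in 11 and *Vil1* in 1 (mouse 92, counted among the 10) stood at a value that many features of the array share. There they give no level of their own. The deposited table holds no intensities, so a gene near 0 cannot be told from one with no signal above background. In RNA of whole colon, fewer cells of a type and less RNA per cell cannot be told apart. Beyond the titles, no label used here says how the mice relate. A p-value sets a difference against the spread between these mice, each on 1 array.

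Few interleukins and receptors were called between genotypes, as was so for genes at large. A gene was called when limma's test gave an adjusted p under 0.05 over all genes and the difference was at least 1.5-fold (0.58 on the log2 scale). Of 50 members, 1 was called higher and 0 lower in *Il10*-/- mice at 7 weeks, against 1.4% of all genes called higher and 1.01% called lower. At 12 weeks again 1 was called higher and 0 lower, against 1.5% and 1.02% of all genes, so the share of members called was near that of all genes in both directions and at both ages. The member called at 7 weeks was *Il13ra1* and the one called at 12 weeks *Il4ra*, the chains that together form a receptor for IL-4 and IL-13.

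By adjusted p alone, whatever the size, 4 members were higher and 0 lower at 7 weeks (4.12% and 4.08% of all genes), all of them receptor chains: *Il13ra1*, *Il4ra*, *Il12rb1* and *Il17rc*. At 12 weeks 6 were higher (*Il4ra*, *Il13ra1*, *Il2rb*, *Il4i1*, *Il11* and *Il34*) and 2 lower (*Il15* and *Il27*), against 5.17% and 4.94% of all genes. At an unadjusted p under 0.05 the counts were 8 higher and 1 lower at 7 weeks, against 10% and 11.2% of all genes, and 9 higher and 3 lower at 12 weeks, against 11% and 11.9%. The median difference over the members was 0.02 at 7 weeks and 0.06 at 12 weeks, beside −0.01 and 0.00 over all genes. For 46 of the 50 members at each age the 95% interval of the difference lay wholly inside 1.5-fold in either direction, as it did for 90.3% of all genes at 7 weeks and 92.4% at 12 weeks. For members near the pool level, such an interval carries the limit on signal given above. The exceptions were *Il4ra*, *Il13ra1* and *Il21* at both ages, *Il12rb1* at 7 weeks and *Il2rb* at 12 weeks.

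**Figure D1:**
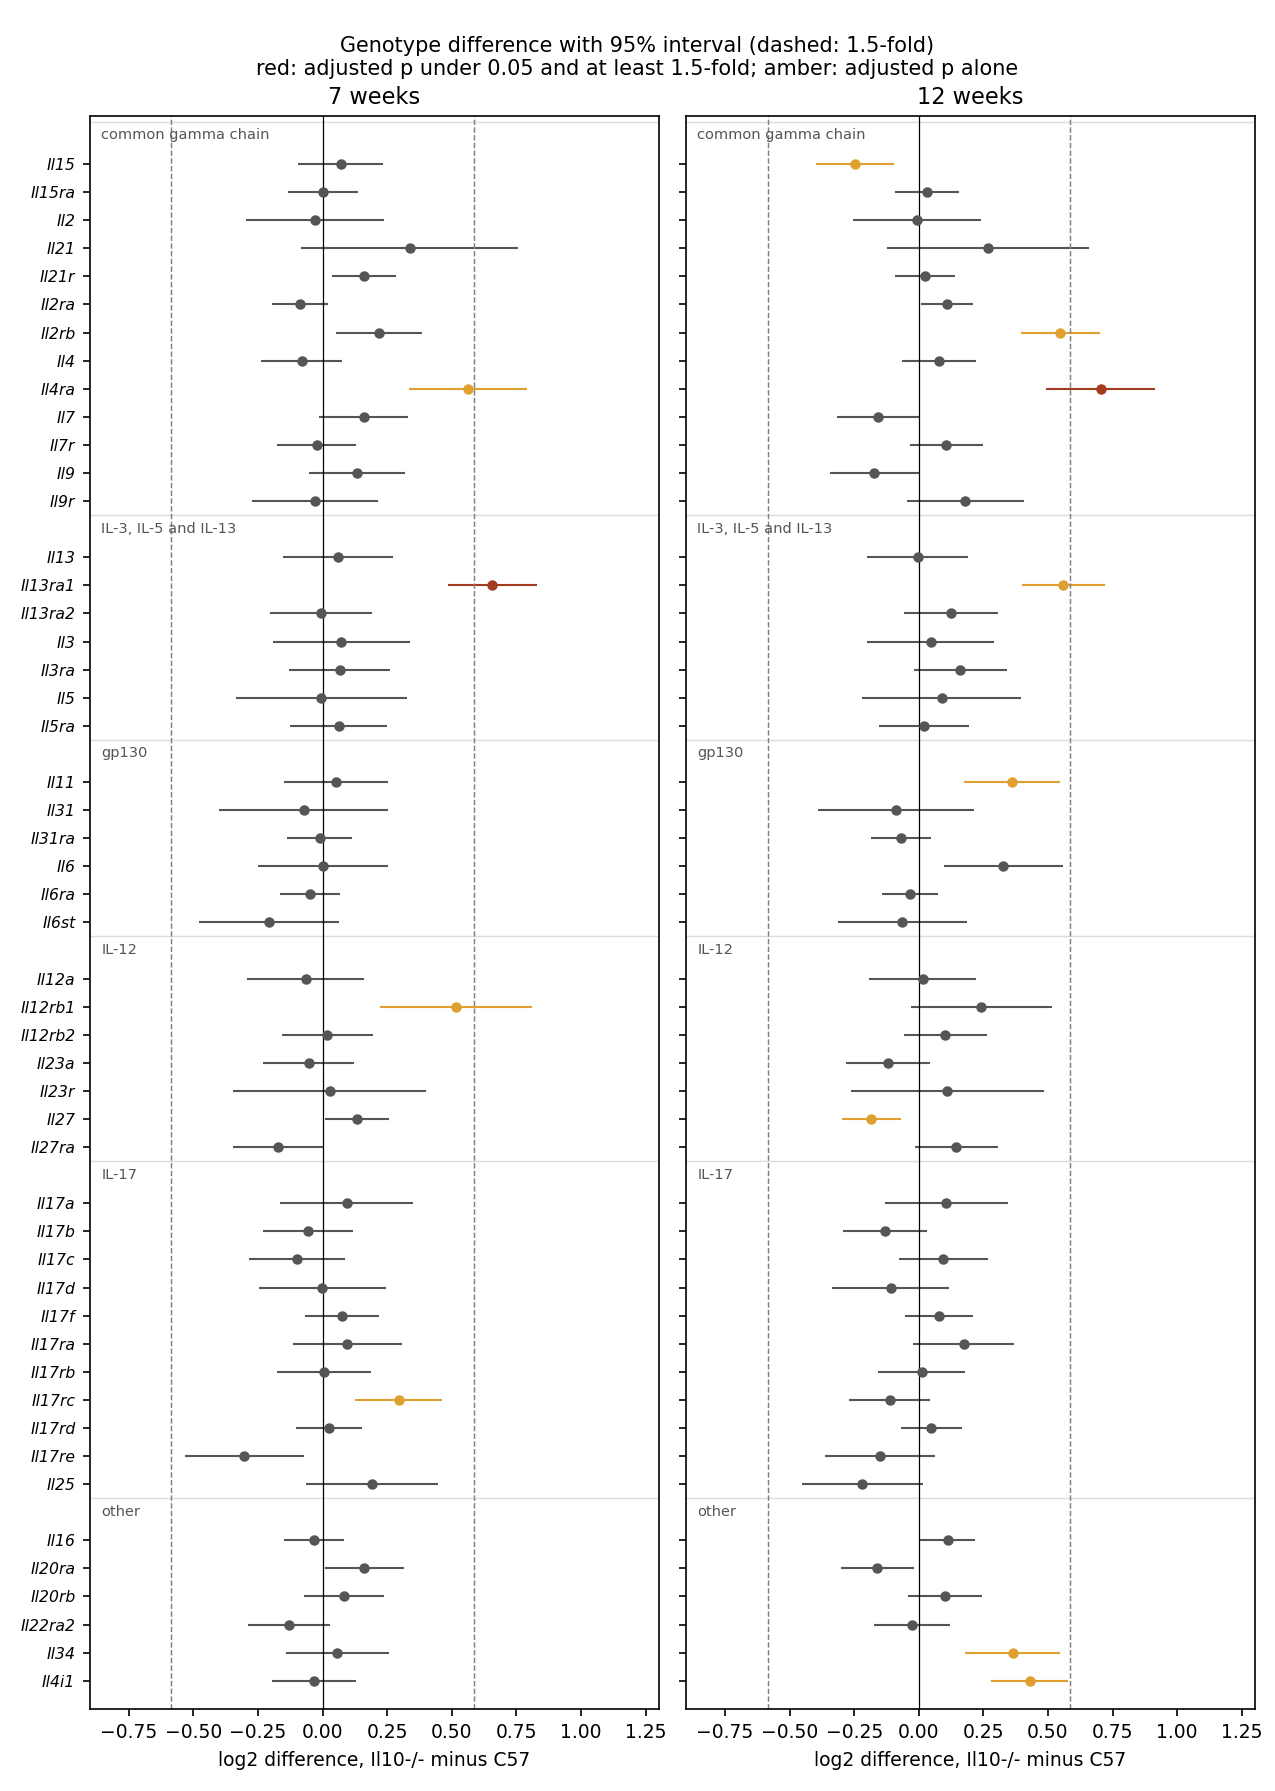
Log2 difference between *Il10*-/- and C57 mice of the same age for the 50 genes, by family, at 7 weeks (left, 3 against 4 mice) and 12 weeks (right, 4 against 4 mice); points are limma's estimates and bars their 95% intervals, and dashed lines mark 1.5-fold. Most points lie within 0.25 of 0, and *Il4ra* and *Il13ra1* stand to the right at both ages.

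*Il4ra*, the chain that binds IL-4 in all of its receptors, stood above C57 at both ages and passed the size threshold at 12 weeks. Its level was 0.02, 0.05, −0.07 and −0.23 in C57 mice 43 to 46 at 7 weeks, and 0.50, 0.43 and 0.59 in *Il10*-/- mice 75, 77 and 78. At 12 weeks it was 0.00, −0.12, −0.03 and −0.02 in C57 mice 63 to 66 and 0.86, 0.86, 0.35 and 0.57 in *Il10*-/- mice 92, 94, 95 and 96. The genotypes did not overlap at either age, and mouse 95 was the lowest of the older *Il10*-/- mice. The difference was 0.56 ± 0.11 (SE) at 7 weeks, with a limma adjusted p of 0.0038 but under 1.5-fold, and 0.70 ± 0.10 at 12 weeks (adjusted p = 0.00021, 1.63-fold). The intervals, 0.33 to 0.79 and 0.49 to 0.92, both contain 1.5-fold, so the call at 1 age only is no sign that the ages differ. Tested directly, the difference between ages was 0.14 ± 0.15 (adjusted p = 0.68).

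*Il13ra1*, its partner chain for IL-13, behaved alike. Its level, a mean of 2 features, was −0.01, −0.13, −0.06 and −0.10 in C57 mice 43 to 46 and 0.60, 0.54 and 0.61 in *Il10*-/- mice 75, 77 and 78. At 12 weeks it was 0.02, 0.05, −0.06 and 0.00 in C57 mice 63 to 66 and 0.73, 0.70, 0.33 and 0.49 in *Il10*-/- mice 92, 94, 95 and 96. The genotypes were again apart at both ages, with mouse 95 again the lowest of its group. The difference was 0.66 ± 0.08 at 7 weeks (adjusted p = 0.00011, 1.58-fold) and 0.56 ± 0.07 at 12 weeks (adjusted p = 0.00013, 1.47-fold). Between ages the difference moved by −0.10 ± 0.11 (adjusted p = 0.71). Both features of the gene were higher in *Il10*-/- mice, to unlike sizes: 0.91 ± 0.12 and 0.40 ± 0.10 at 7 weeks, and 0.77 ± 0.11 and 0.35 ± 0.09 at 12 weeks. With each feature tested by itself, the first is called at both ages (1.3% of 42128 features called higher at 7 weeks and 1.59% at 12 weeks). The call at 12 weeks thus turns on whether the features are averaged.

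The ligands of that receptor did not pass the test. *Il4* differed by −0.08 ± 0.07 at 7 weeks and 0.08 ± 0.07 at 12 weeks, with 95% intervals of −0.24 to 0.07 and −0.07 to 0.22. *Il13* differed by 0.06 ± 0.10 and 0.00 ± 0.09, with intervals of −0.15 to 0.27 and −0.20 to 0.19. All of these intervals lie inside 1.5-fold, for genes whose level near the pool cannot be told from no signal. *Il13ra2*, the decoy receptor that binds IL-13 without the signaling of *Il4ra*, stood at −0.01 ± 0.09 and 0.12 ± 0.09. *Stat6*, the factor that the receptor activates, differed by −0.04 ± 0.07 at 7 weeks and by 0.22 ± 0.06 at 12 weeks (adjusted p = 0.038, under 1.5-fold).

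**Figure D2:**
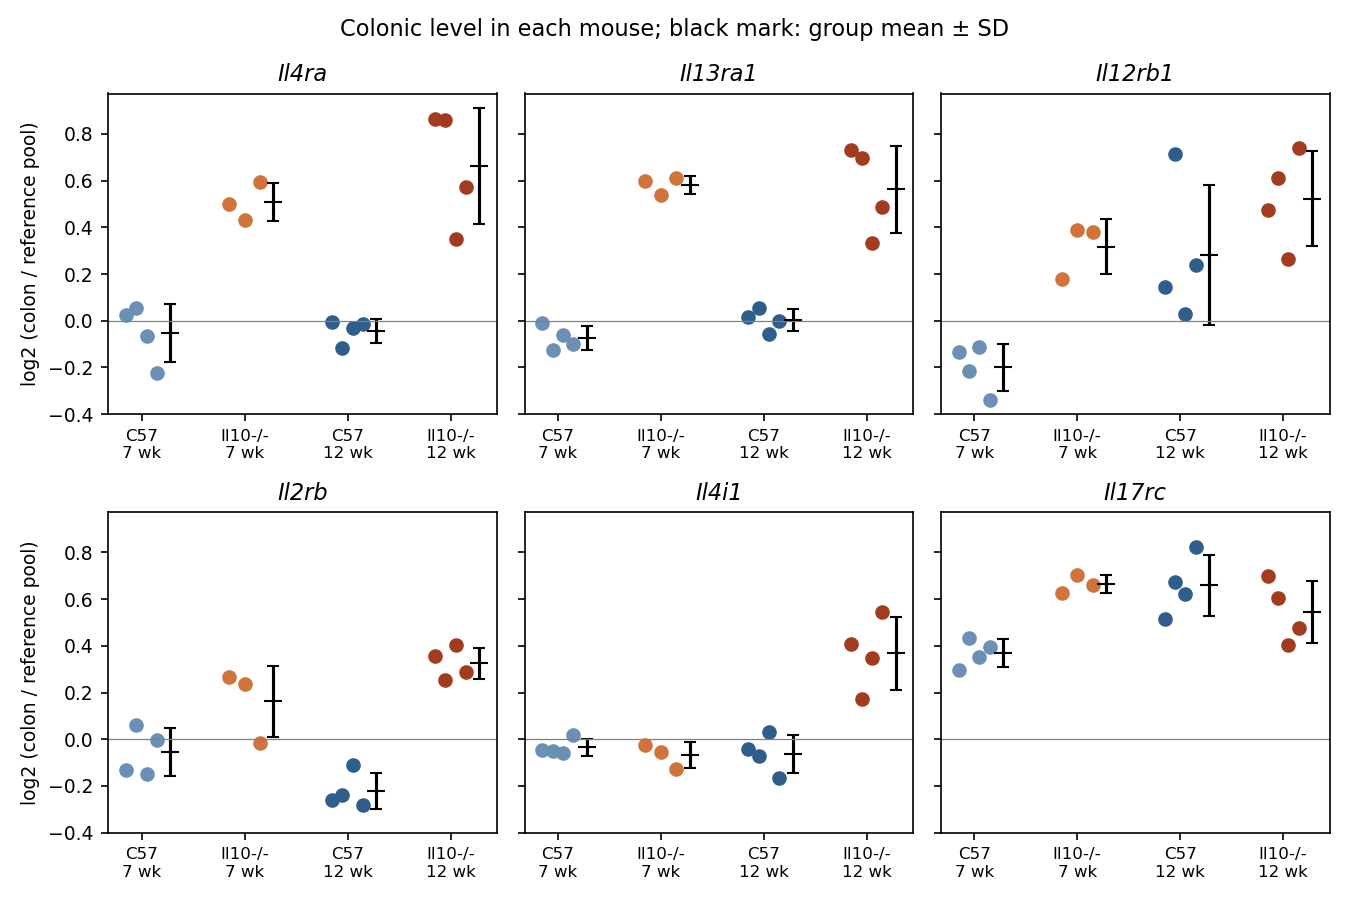
Log2 level against the reference pool in each mouse (points) for *Il4ra*, *Il13ra1*, *Il12rb1*, *Il2rb*, *Il4i1* and *Il17rc*, in the 4 groups of 3 or 4 mice; the black mark beside each group is its mean ± SD. Every *Il10*-/- mouse lies above every C57 mouse at both ages for *Il4ra* and *Il13ra1*, at 12 weeks for *Il2rb* and *Il4i1*, and at 7 weeks for *Il12rb1* and *Il17rc*, with overlap of the points at the other age.

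Some macrophage and neutrophil markers were called with the genotype as well. Of the 6 listed macrophage and dendritic cell markers 4 were measured, and *Cd14* (0.95 ± 0.10 at 7 weeks and 0.99 ± 0.09 at 12 weeks) and *Aif1* (0.61 ± 0.13 and 1.11 ± 0.12) were called higher at both ages. *Adgre1* and *Itgax* were not called at either age. The lowest difference of the 4 was that of *Adgre1* at 7 weeks (0.02) and of *Itgax* at 12 weeks (0.16). The mean over the 4 thus rests mostly on *Cd14* and *Aif1*. It ran from −0.24 to 0.10 in C57 and from 0.36 to 0.46 in *Il10*-/- mice at 7 weeks. At 12 weeks it ran from −0.21 to 0.08 and from 0.57 to 0.64. The mean over 5 neutrophil markers ran from −0.40 to −0.17 in C57 and 0.25 to 0.70 in *Il10*-/- mice at 7 weeks, and from −0.38 to 0.01 and 0.51 to 1.33 at 12 weeks. That mean rests on *S100a8* (1.53 ± 0.38 and 2.41 ± 0.35) and *S100a9* (2.00 ± 0.37 and 3.33 ± 0.35), the 2 of 5 called at both ages. The median difference of the 5 was 0.09 and 0.29, and *Mmp8* (−0.01 ± 0.18 and 0.29 ± 0.17) and *Ngp* (0.09 ± 0.07 and −0.10 ± 0.07) did not pass. *Il4ra* and *Il13ra1* are known from macrophages and also from epithelium and stroma. The part of these cells in the differences was not tested.

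Of 6 mast cell markers *Kit* was called lower at 7 weeks (−0.72 ± 0.20), while 2 were above 0 and the median was −0.12. At 12 weeks 0 were called, *Tpsb2* passed the adjusted p alone (−0.24 ± 0.06) and the median was −0.22. Of 3 eosinophil markers measured, 0 passed the adjusted p at either age. Of 5 smooth muscle markers *Myh11* was called lower at 12 weeks (−0.87 ± 0.21), with a median of −0.29 over the 5. Of the T and B cell markers, 0 passed the adjusted p at 7 weeks. The 6 epithelial markers had 0 called at either age, with a median of −0.06 at 7 weeks and −0.10 at 12 weeks. By adjusted p alone 1 of them was lower at 12 weeks. That list includes *Krt8* and *Krt20*, which stood mostly at the shared value described above. Among 5 fibroblast markers 0 were called, and the medians were −0.07 and 0.15. By adjusted p alone 1 was lower at 7 weeks and 1 higher at 12 weeks.

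As *Il4ra* and *Il13ra1* were the members called, the 250 bases before their annotated starts are shown, read from RefSeq for build GRCm38.p6, where 38 of the 50 members have such a sequence. *Il4ra* lies at chr7:125552021-125552270 and *Il13ra1* at chrX:36111858-36112107, both on the plus strand, 5′ to 3′. Capitals mark GGGCGG or its reverse complement, the core of the GC box, a motif picked after the sequences were seen.
Il4ra: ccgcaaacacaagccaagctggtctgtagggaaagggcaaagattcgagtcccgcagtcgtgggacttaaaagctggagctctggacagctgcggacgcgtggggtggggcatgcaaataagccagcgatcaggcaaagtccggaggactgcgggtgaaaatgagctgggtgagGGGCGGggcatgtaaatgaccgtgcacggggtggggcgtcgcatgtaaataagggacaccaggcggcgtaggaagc
Il13ra1: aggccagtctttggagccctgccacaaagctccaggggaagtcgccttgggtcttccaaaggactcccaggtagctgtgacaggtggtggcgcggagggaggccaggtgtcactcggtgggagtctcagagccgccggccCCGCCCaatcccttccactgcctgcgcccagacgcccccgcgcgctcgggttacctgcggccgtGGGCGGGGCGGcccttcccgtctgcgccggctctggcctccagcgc
The *Il4ra* stretch holds 1 such match and that of *Il13ra1* holds 3, and their GC content is 59.6% and 70.8%. GGGCGG occurs on either strand in 32.7% of all 32851 promoter sequences of this length, and in 14 of the 44 of members. The letters GAAANNGAA, a short form of the interferon-stimulated element, are in neither stretch and in 7.13% of all. The letters TTCNNNGAA, the spacing read by several STAT factors, are likewise in neither and in 7.02% of all. These are matches of letters in a short window, not sites, and no other spacing of such letters was searched.

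Of the 13 common gamma chain genes measured, 1 was called at 12 weeks (*Il4ra*) and 0 at 7 weeks. *Il2rb*, the chain through which T cells and natural killer cells receive IL-2 and IL-15, had the next largest difference of the family at 12 weeks. At 7 weeks its level was −0.13, 0.06, −0.15 and 0.00 in C57 mice 43 to 46 and 0.27, 0.24 and −0.02 in *Il10*-/- mice 75, 77 and 78, so the genotypes overlapped. At 12 weeks it was −0.26, −0.24, −0.11 and −0.28 in C57 mice 63 to 66 and 0.35, 0.25, 0.40 and 0.29 in *Il10*-/- mice 92, 94, 95 and 96, with every *Il10*-/- mouse above every C57 mouse. The difference of 0.55 ± 0.07 at 12 weeks (adjusted p = 0.00012, 1.46-fold) just missed 1.5-fold, and that of 0.22 ± 0.08 at 7 weeks had an adjusted p of 0.11. The change in the difference between ages, 0.33 ± 0.11, did not pass (adjusted p = 0.12).

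Some T cell markers differed at 12 weeks as *Il2rb* did. Of 7 listed 6 were measured, and none was called at either age by both thresholds, but *Cd3d* (0.49 ± 0.10), *Cd3g* (0.47 ± 0.09) and *Cd5* (0.29 ± 0.06) passed the adjusted p at 12 weeks. *Cd8a* (0.21 ± 0.07), *Cd4* (0.04 ± 0.06) and *Cd3e* (−0.10 ± 0.06) did not pass. The mean of the 6 ran from −0.09 to −0.03 in C57 and from 0.12 to 0.26 in *Il10*-/- mice at 12 weeks, against −0.01 to 0.06 and 0.04 to 0.12 at 7 weeks. Whether *Il2rb* moved apart from the T cells was not tested.

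The T cell growth factor *Il2* differed by −0.03 ± 0.13 at 7 weeks and −0.01 ± 0.12 at 12 weeks. *Il21*, made by helper T cells, had the least certain value of the family, with 0.34 ± 0.20 and 0.27 ± 0.18, and intervals of −0.08 to 0.76 and −0.12 to 0.66 that reach beyond 1.5-fold. *Il7r*, the receptor chain of IL-7, stood at −0.02 ± 0.07 and 0.11 ± 0.07. The lowest difference of the family at 7 weeks was that of *Il2ra* (−0.09 ± 0.05), the inducible IL-2 receptor chain, and at 12 weeks that of *Il15* (−0.25 ± 0.07, adjusted p = 0.039). The mast cell growth factor *Il9* stood at 0.13 ± 0.09 and −0.17 ± 0.08 and its receptor *Il9r* at −0.03 ± 0.11 and 0.18 ± 0.11. The IL-15 receptor chain *Il15ra*, at 0.00 ± 0.06 and 0.03 ± 0.06, and the IL-21 receptor *Il21r*, at 0.16 ± 0.06 and 0.02 ± 0.05, were among the most precisely measured.

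The 2 features of *Il15*, a cytokine that sustains intraepithelial lymphocytes and natural killer cells, did not give the same picture. The first, annotated to the RefSeq transcript, had a level of 0.40, 0.52, 0.43 and 0.52 in C57 mice 63 to 66 and 0.04, 0.05, 0.04 and −0.15 in *Il10*-/- mice 92, 94, 95 and 96. It was lower in *Il10*-/- mice by −0.47 ± 0.07 at 12 weeks, with an adjusted p of 0.00031 over all features, still under 1.5-fold, and by −0.17 ± 0.08 at 7 weeks (adjusted p = 0.24). The second, annotated to another cDNA, stood at −0.02 ± 0.11 at 12 weeks and 0.31 ± 0.11 at 7 weeks, neither of them past the test. The gene's mean is thus that of features with unlike values.

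In the small group of IL-3, IL-5 and IL-13 and their receptors, 6 of 7 genes had differences of −0.01 to 0.16 at both ages, and the seventh was *Il13ra1*. The eosinophil growth factor *Il5* differed by 0.00 ± 0.16 and 0.09 ± 0.14, and *Il5ra* by 0.06 ± 0.09 and 0.02 ± 0.08. *Il3* stood at 0.07 ± 0.13 and 0.05 ± 0.12 and its receptor chain *Il3ra* at 0.07 ± 0.09 and 0.16 ± 0.08. The beta chain that IL-3 and IL-5 share, *Csf2rb*, and a beta chain for IL-3, *Csf2rb2*, were partner genes and not members. *Csf2rb2* was called higher at 12 weeks (0.67 ± 0.08, adjusted p = 7.1e-05), and *Csf2rb* stood at 0.40 ± 0.08 (adjusted p = 0.0031). At 7 weeks they differed by 0.29 ± 0.09 and 0.05 ± 0.08, neither past the test.

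Of the 6 genes measured for IL-6, IL-11, IL-31 and their receptors, the signal chain gp130 (*Il6st*) among them, none was called at either age. *Il11*, a stromal cytokine of the IL-6 type, had a level of −0.55, −0.48, −0.27 and −0.26 in C57 mice 63 to 66 and 0.18, −0.04, −0.26 and −0.01 in *Il10*-/- mice 92, 94, 95 and 96. Mouse 95 was again the lowest of its group and only just above the highest C57 mouse. The difference was 0.36 ± 0.09 at 12 weeks (adjusted p = 0.015) and 0.05 ± 0.10 at 7 weeks, with 0.31 ± 0.13 between ages (adjusted p = 0.24). *Il6*, a main inducer of the acute phase response, differed by 0.33 ± 0.11 at 12 weeks and did not pass (adjusted p = 0.072), although the genotypes did not overlap: −0.12, −0.21, −0.07 and −0.60 in C57 mice 63 to 66 against 0.32, 0.05, −0.03 and −0.03 in *Il10*-/- mice. At 7 weeks it stood at 0.00 ± 0.12. *Il6st* differed by −0.21 ± 0.13 and −0.06 ± 0.12 and *Il6ra* by −0.05 ± 0.05 and −0.03 ± 0.05. The lowest value of the family at 12 weeks was that of *Il31* (−0.09 ± 0.14), the itch cytokine, whose receptor *Il31ra* stood at −0.01 ± 0.06 and −0.07 ± 0.06.

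The IL-12 and IL-23 family, which sets the balance of Th1 and Th17 cells, had 7 measured genes and none called. *Il12rb1*, the receptor chain common to IL-12 and IL-23, had a level of −0.13, −0.22, −0.11 and −0.34 in C57 mice 43 to 46 and 0.18, 0.39 and 0.38 in *Il10*-/- mice 75, 77 and 78. The genotypes were apart at 7 weeks, by 0.52 ± 0.14 (adjusted p = 0.030, 1.43-fold). At 12 weeks C57 mouse 64 reached 0.71, close to the highest *Il10*-/- mouse at 0.74, and the difference was 0.24 ± 0.13 (adjusted p = 0.29). The change in the difference between ages, −0.27 ± 0.19, did not pass (adjusted p = 0.49). C57 mice of 12 weeks stood 0.48 ± 0.13 above those of 7 weeks (adjusted p = 0.10), which did not pass. The ligand genes *Il12a* (−0.07 ± 0.11 and 0.01 ± 0.10) and *Il23a* (−0.05 ± 0.08 and −0.12 ± 0.08) did not pass, nor did the receptor chains *Il12rb2* (0.02 ± 0.08 and 0.10 ± 0.08) and *Il23r* (0.03 ± 0.17 and 0.11 ± 0.17), the last with 1 C57 mouse missing at 12 weeks. The lowest value of the family at 7 weeks was that of *Il27ra* (−0.17 ± 0.08, and 0.15 ± 0.08 at 12 weeks), the IL-27 receptor chain.

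*Il27*, the p28 chain of a cytokine that restrains T cells, had differences of opposite sign at the 2 ages. Only that at 12 weeks passed the adjusted p. Its level was 0.25, 0.26, 0.24 and 0.27 in C57 mice 43 to 46 and 0.39, 0.33 and 0.45 in *Il10*-/- mice 75, 77 and 78. At 12 weeks it was 0.43, 0.26, 0.39 and 0.50 in C57 mice 63 to 66 and 0.20, 0.21, 0.25 and 0.18 in *Il10*-/- mice 92, 94, 95 and 96. The genotypes did not overlap at either age, with *Il10*-/- mice above at 7 weeks and below at 12 weeks. The differences were small, 0.13 ± 0.06 (adjusted p = 0.19) and −0.18 ± 0.05 (adjusted p = 0.040), and the change between them was −0.32 ± 0.08 (adjusted p = 0.048), under 1.5-fold. Its partner chain *Ebi3* did not pass at either age.

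Of the 11 genes of the IL-17 family none was called. The Th17 cytokine genes *Il17a* (0.09 ± 0.12 and 0.11 ± 0.11) and *Il17f* (0.08 ± 0.07 and 0.08 ± 0.06) had intervals of −0.16 to 0.35 and −0.13 to 0.34, and of −0.07 to 0.22 and −0.05 to 0.21, all inside 1.5-fold. The common receptor chain *Il17ra* stood at 0.10 ± 0.10 and 0.17 ± 0.09. *Il17re*, the epithelial receptor chain for IL-17C, had the lowest difference of all members at 7 weeks, −0.30 ± 0.11, and did not pass (adjusted p = 0.11). Its level was 0.65, 0.68, 0.43 and 0.58 in C57 mice 43 to 46 against 0.32, 0.36 and 0.16 in *Il10*-/- mice 75, 77 and 78. *Il25*, the tuft cell cytokine also named IL-17E, gave the lowest value of the family at 12 weeks (−0.22 ± 0.11, adjusted p = 0.26) and stood at 0.19 ± 0.12 at 7 weeks. Its receptor chain *Il17rb* stood at 0.00 ± 0.09 and 0.01 ± 0.08. The ligand genes *Il17b* (−0.06 ± 0.08 and −0.13 ± 0.08), *Il17c* (−0.10 ± 0.09 and 0.10 ± 0.08) and *Il17d* (0.00 ± 0.11 and −0.11 ± 0.11) did not pass, nor did *Il17rd* (0.03 ± 0.06 and 0.05 ± 0.06), an inhibitor of growth factor signals.

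*Il17rc*, the chain that joins *Il17ra* to bind IL-17A and IL-17F, had the highest level of the family against the pool in every group but the young C57 mice. As a mean of 3 features it was 0.30, 0.43, 0.35 and 0.39 in C57 mice 43 to 46 and 0.63, 0.70 and 0.66 in *Il10*-/- mice 75, 77 and 78. At 12 weeks C57 mice stood at 0.51, 0.67, 0.62 and 0.82 and *Il10*-/- mice at 0.70, 0.60, 0.40 and 0.47, with overlap. The young C57 mice had the lowest group mean. The older C57 mice stood 0.29 ± 0.07 above them, which did not pass (limma adjusted p = 0.079). The genotype difference was 0.29 ± 0.08 at 7 weeks (adjusted p = 0.030) and −0.11 ± 0.07 at 12 weeks (adjusted p = 0.40). Its change between ages was −0.41 ± 0.11 and did not pass (adjusted p = 0.061).

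The features of *Il17rc* separate that result. A pair annotated to the RefSeq transcript moved together, and the other, annotated to a different cDNA, stayed between −0.15 and 0.26 in all mice. The stronger of the pair had a mean of 0.59 ± 0.06 (SD, n = 4) in C57 mice at 7 weeks, 1.13 ± 0.14 (n = 3) in *Il10*-/- mice at 7 weeks, 1.22 ± 0.19 (n = 4) in C57 mice at 12 weeks and 0.90 ± 0.18 (n = 4) in *Il10*-/- mice at 12 weeks. Tested by itself it rose from 7 to 12 weeks in C57 mice by 0.62 ± 0.10 (SE, adjusted p = 0.0088 over all features), where 0.33% of features were called. Its genotype difference was 0.53 ± 0.11 at 7 weeks (adjusted p = 0.0074) and −0.31 ± 0.10 at 12 weeks (adjusted p = 0.073). The change between these, −0.85 ± 0.15 (adjusted p = 0.0077), was called, as were 1.23% of features. The other feature of the pair gave −0.49 ± 0.12 for that change (adjusted p = 0.049), under 1.5-fold.

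A feature of *Il7* was the only other member feature called for a change between ages, −0.88 ± 0.20 (adjusted p = 0.031). It stood at 0.02, 0.16, −0.05 and −0.01 in C57 mice 43 to 46 and 0.57, 0.19 and 0.64 in *Il10*-/- mice 75, 77 and 78. At 12 weeks it was 0.30, 0.89, 0.16 and 0.22 in C57 mice 63 to 66 and −0.13, 0.07, −0.04 and −0.12 in *Il10*-/- mice 92, 94, 95 and 96. The other 2 features of *Il7*, 1 of them on the same transcript, differed by no more than 0.04 between genotypes at either age, and the gene's mean did not pass for any comparison. Of the 16 members with several features, 10 had features with differences of opposite sign at 7 weeks and 10 at 12 weeks, so small values of these genes carry no direction.

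**Figure D3:**
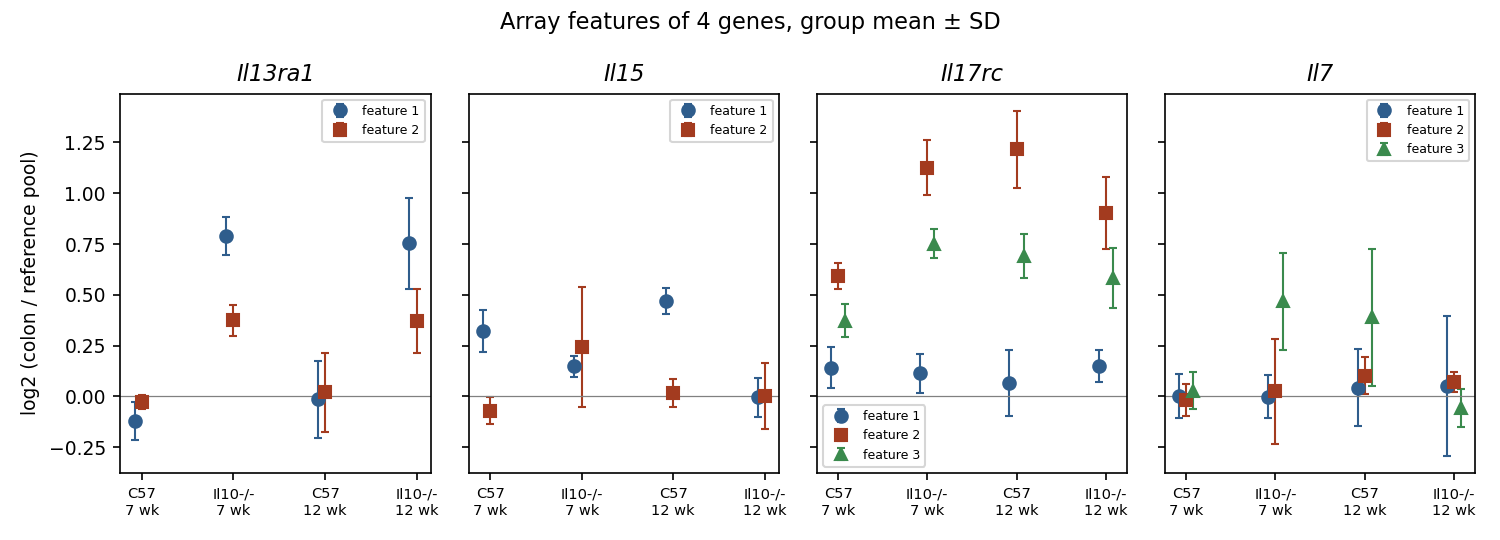
Group mean ± SD (3 or 4 mice) of the log2 level against the reference pool for each feature of *Il13ra1*, *Il15*, *Il17rc* and *Il7*, a symbol per feature. Both *Il13ra1* features are higher in *Il10*-/- mice, while features of the other 3 genes part from each other.

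Among the genes outside these families, *Il4i1*, an enzyme that breaks down phenylalanine and was named for its induction by IL-4, was the member with the clearest change with age. Its level was −0.05, −0.05, −0.06 and 0.02 in C57 mice 43 to 46, −0.02, −0.05 and −0.13 in *Il10*-/- mice 75, 77 and 78, and −0.04, −0.07, 0.03 and −0.17 in C57 mice 63 to 66. In *Il10*-/- mice 92, 94, 95 and 96 of 12 weeks it was 0.41, 0.17, 0.35 and 0.54, above every other mouse. The difference between genotypes was −0.03 ± 0.08 at 7 weeks and 0.43 ± 0.07 at 12 weeks (adjusted p = 0.00076, 1.35-fold), and its change between ages was 0.46 ± 0.10 (adjusted p = 0.029). From 7 to 12 weeks the difference was 0.44 ± 0.08 within *Il10*-/- mice (adjusted p = 0.0097) and −0.03 ± 0.07 within C57 mice. None of these reached 1.5-fold. Of 4 B cell markers measured of 5 listed, 1 passed the adjusted p, *Cd79b*, which was called higher at 12 weeks (0.73 ± 0.09). *Ms4a1* (0.21 ± 0.07), *Cd22* (0.12 ± 0.09) and *Cd79a* (−0.02 ± 0.07) did not pass, and the mean of the 4 ran from −0.08 to 0.06 in C57 and 0.11 to 0.34 in *Il10*-/- mice at 12 weeks and from −0.14 to 0.02 over both genotypes at 7 weeks. Of the 4 macrophage and dendritic cell markers, *Cd14* and *Aif1* were called higher at 12 weeks too, and *Adgre1* and *Itgax* were not. The part of any of these cells in the *Il4i1* difference was not tested.

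*Il34*, a ligand of the macrophage receptor *Csf1r*, had a level of −0.26, −0.13, −0.31 and 0.10 in C57 mice 63 to 66 and 0.28, 0.08, 0.32 and 0.17 in *Il10*-/- mice 92, 94, 95 and 96. Mouse 66 overlapped the *Il10*-/- mice. The difference was 0.36 ± 0.09 at 12 weeks (adjusted p = 0.013, 1.29-fold) and 0.06 ± 0.09 at 7 weeks, with 0.31 ± 0.13 between ages (adjusted p = 0.24). The lowest value of the remaining genes was that of the IL-22 decoy receptor *Il22ra2* at 7 weeks (−0.13 ± 0.08) and of the IL-20 receptor chain *Il20ra* at 12 weeks (−0.16 ± 0.07, after 0.16 ± 0.07 at 7 weeks), none of them past the test. *Il20rb*, the other chain of that receptor, stood at 0.08 ± 0.07 and 0.10 ± 0.07. The T cell attractant *Il16* stood at −0.03 ± 0.05 and 0.11 ± 0.05.

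With age itself, no member was called in either genotype, at the gene level: 0 of 50 in *Il10*-/- mice, where 0.419% of all genes were called, and 0 of 50 in C57 mice, where 0.404% were. By limma's unadjusted p under 0.05, 7 members were higher and 2 lower at 12 weeks in *Il10*-/- mice, against 7.75% and 5.9% of all genes, and likewise 7 and 2 in C57 mice, against 6.9% and 6.27%. By adjusted p alone, *Il4i1* in *Il10*-/- mice was the 1 member, beside 1.38% of all genes. The genotype difference changed between ages by both thresholds in 0 of 50 members (1.15% of all genes), with 6 upward and 7 downward at unadjusted p under 0.05, where 8.67% and 8.21% of all genes stood. By adjusted p alone it changed in *Il4i1* and *Il27*, 2 of 50 (2.25% of all genes). The young and old mice are different animals.

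Counting separation in place of a test, all *Il10*-/- mice lay above all C57 mice for 8 members at 7 weeks (*Il4ra*, *Il13ra1*, *Il12rb1*, *Il17rc*, *Il21*, *Il21r*, *Il27* and *Il7*) and below for 3 (*Il17re*, *Il2ra* and *Il6st*), where 10.8% and 12.4% of all genes did so. At 12 weeks this held for 7 above (*Il4ra*, *Il13ra1*, *Il2rb*, *Il4i1*, *Il11*, *Il6* and *Il2ra*) and 2 below (*Il15* and *Il27*), where 6.48% and 7.05% of all genes did. *Il4ra* and *Il13ra1* were the members above at both ages.

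Other genes of these pathways, listed for their known place beside the members, were examined the same way. Of 33 partner genes listed, 28 were measured, and the list was drawn up with earlier results of these data known. At 7 weeks 3 were called higher and 0 lower, against 1.4% and 1.01% of all genes. At 12 weeks 5 were called higher and 0 lower, against 1.5% and 1.02%. By adjusted p alone 7 were higher and 1 lower at 7 weeks (4.12% and 4.08% of all genes). At 12 weeks 14 were higher and 0 lower (5.17% and 4.94%). Their median difference was 0.07 at 7 weeks and 0.23 at 12 weeks, beside −0.01 and 0.00 over all genes. The largest were the feedback inhibitors *Socs3* (1.73 ± 0.16 at 7 weeks and 1.67 ± 0.15 at 12 weeks), which blocks signals of gp130, and *Socs1* (1.58 ± 0.15 and 1.41 ± 0.14), which blocks those of interferon and IL-4 receptors. Both were called at 7 weeks already. At that age *Il6* and *Il6st* did not pass the adjusted p, while *Clcf1*, *Osmr* and *Ifng*, given below, did. What raised the inhibitors was not tested. The other SOCS genes listed were not called: *Cish* stood at −0.43 ± 0.12 at 7 weeks (adjusted p = 0.045) and −0.05 ± 0.12 at 12 weeks, and *Socs2* did not pass.

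*Crlf2*, which pairs with *Il7r* to form the receptor of the epithelial cytokine TSLP, was called at both ages (0.80 ± 0.10 and 1.12 ± 0.10), while its partner *Il7r* and the ligand gene *Tslp* (−0.02 ± 0.12 and −0.08 ± 0.11) were not. *Ifng*, the cytokine of Th1 cells, was called at 12 weeks (0.74 ± 0.09, adjusted p = 4.7e-05) and stood at 0.42 ± 0.10 at 7 weeks (adjusted p = 0.012, under 1.5-fold). The gp130 cytokine *Clcf1* differed by 0.56 ± 0.09 and 0.54 ± 0.09, and the oncostatin M receptor *Osmr* by 0.29 ± 0.07 and 0.38 ± 0.06, past the adjusted p at both ages and under 1.5-fold. *Stat4*, the STAT of the IL-12 receptor, stood at 0.44 ± 0.09 and 0.30 ± 0.09 and passed the adjusted p at both ages. Of the 9 kinases and STATs measured, 0 were called at either age.

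**Figure D4:**
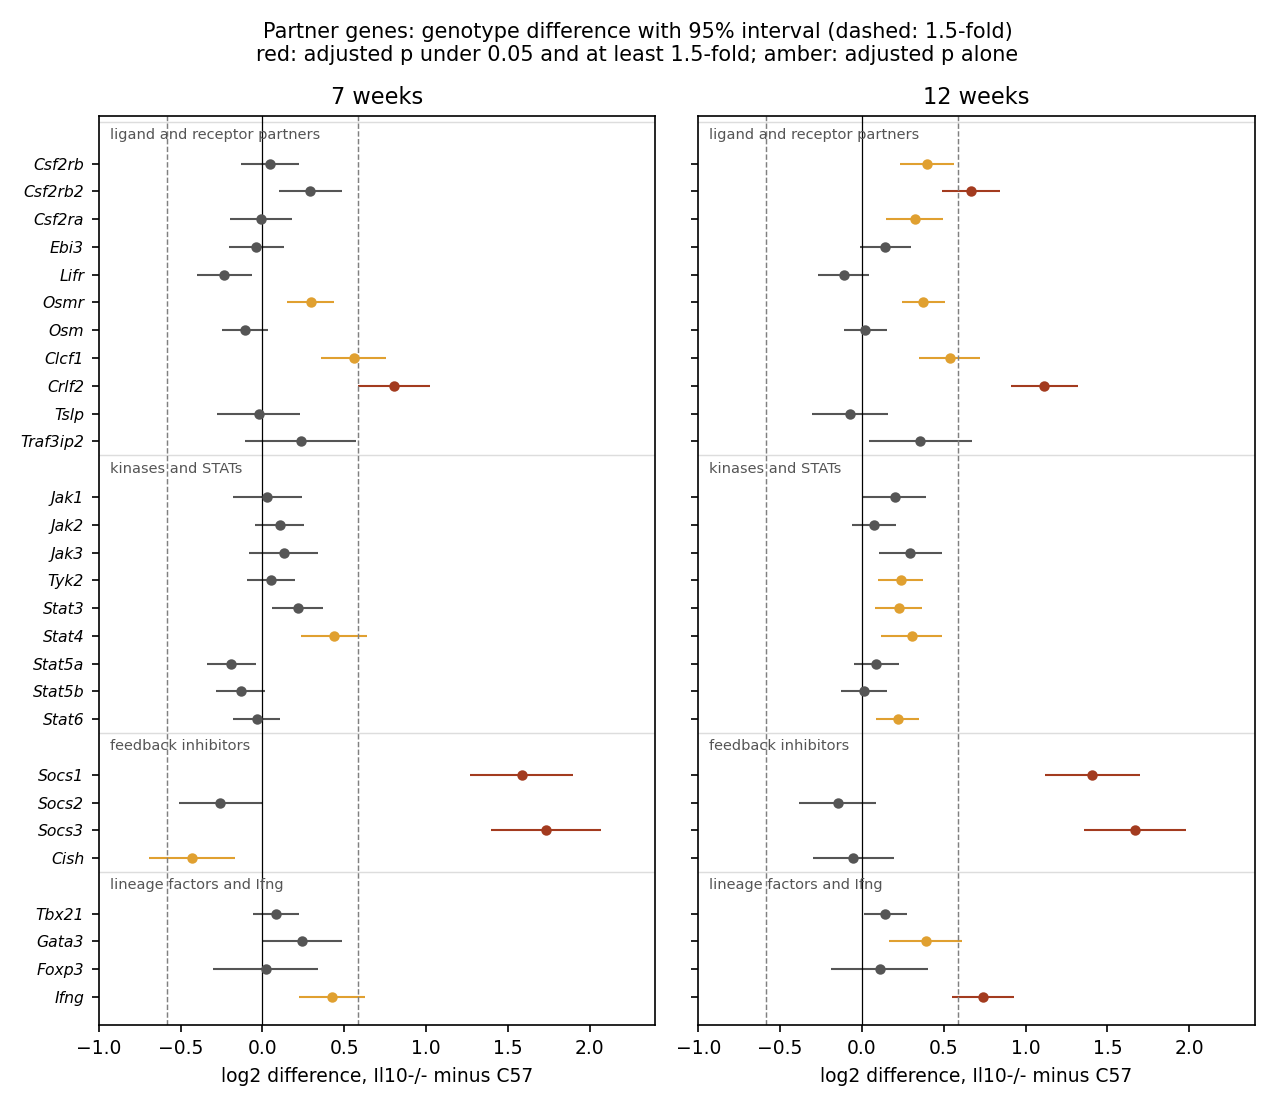
Log2 difference between *Il10*-/- and C57 mice, with 95% intervals, for the 28 partner genes measured, at 7 weeks (left) and 12 weeks (right); dashed lines mark 1.5-fold. *Socs1* and *Socs3* stand beyond 1.4 at both ages and *Crlf2* beyond 0.8, while the kinases and STATs lie within 0.44 of 0.

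Against the pool, the levels of the members were low in range. Group means ran from −0.45 (*Il5ra*) to 0.59 (*Il17re*) in C57 mice of 7 weeks and from −0.42 (*Il6st*) to 0.66 (*Il17rc*) in *Il10*-/- mice of 7 weeks. At 12 weeks they ran from −0.39 (*Il11*) to 0.66 (*Il17rc*) in C57 mice and from −0.34 (*Il5ra*) to 0.66 (*Il4ra*) in *Il10*-/- mice. Between 46 and 49 of the 50 lay within 0.5 of the pool in a group. *Il4ra* was thus the member highest against the pool in the older *Il10*-/- colon. The spread within a group was like that of other genes, with a median SD of 0.09 over the members and 0.10 over all genes.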

How the data were processed

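RNA of single mouse colons, labelled with Cy3, had been hybridized against pooled reference RNA in Cy5. Within-array loess in limma, without subtraction of background, was the authors' normalization, and the deposited values are log2 of colon over pool. They were used unchanged. The microarray platform's annotation, which can be old, names 32016 of the 42128 features with a value on at least 2 arrays of every group by a single gene, and the mean of a gene's features was tested. Features with several genes or none gave no gene value. limma 3.58.1 (R 4.3.3, statmod 1.5.0) fitted 4 group means with 11 residual degrees of freedom, and p-values were Benjamini-Hochberg adjusted over 19076 genes or, for features, over all features. Values are log2 differences ± SE unless said otherwise, in the order 7 and 12 weeks. The fit was tested on simulated data. Figures were drawn with matplotlib 3.10.9 in Python 3.11.15.

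The members, lists and tests were chosen with earlier results of these data known. Members called in any comparison are given mouse by mouse, the main T helper cytokines and receptors with their differences whether called or not, and in every family the largest and smallest difference. Members past the adjusted p alone, and features that disagree, were shown mouse by mouse after their values were seen. Alternatives were other scalings of the arrays (median centring, scale and quantile normalization), the fit (a model of just 2 groups, weights for arrays, a robust prior for the variance), the features and genes used, the fold threshold, and leaving out each mouse. Testing each feature by itself was added after the data were seen. The number of arrays limits the precision.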

Additional observations from a re-analysis of the deposited data

Results flagged for a closer look

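In groups of 4 mice, 1 mouse stood far from the other 3 by Dixon's test in 2 of 69 groups tested (23 members with values given in the text, 3 groups each), about as many as chance gives, 1 in 20. C57 mouse 43 at 7 weeks had an *Il4* level of 0.20, against 0.02 to 0.05 in the other 3. C57 mouse 46 at 7 weeks had an *Il4i1* level of 0.019, against −0.06 to −0.05. Both gaps are small on the log2 scale.

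The genotype difference differed between ages, by limma's adjusted p for the interaction, for *Il4i1* (0.46 higher at 12 than at 7 weeks) and *Il27* (−0.32), both under 1.5-fold.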

How the results depend on the processing

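Counts of members called are small and turn on the thresholds. With no fold threshold, 4 were higher at 7 weeks, 6 higher and 2 lower at 12 weeks, 2 had a difference that changed between ages and 1 changed with age in *Il10*-/- mice. With a fold of 2, or limma's treat against 1.5-fold, 0 were higher at either age (0.43% and 0.613% of all genes at 7 and 12 weeks by the former, 0.241% and 0.472% by the latter). With the most variable feature of each gene, or each feature by itself (added after the data were seen), *Il13ra1* joined *Il4ra* at 12 weeks (2 higher), *Il17rc* and *Il7* changed between ages (2), and *Il17rc* changed with age in C57 mice (1). With the most variable feature 2.22%, 1.61% and 0.582% of all genes did so, more than by the mean of features. Leaving out 1 mouse gave 1 to 2 higher at 7 weeks, *Il4ra* being added without mouse 43, 44 or 77, and 1 to 2 at 12 weeks, *Il13ra1* being added without mouse 95, while 1.1% to 1.54% and 1.43% to 1.63% of all genes were higher. No other setting moved a count. The interaction has no fit with only the groups compared, as it uses all 4.

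*Il13ra1* and *Il4ra* passed the adjusted p at both ages in all 25 settings that refit the values. *Il12rb1* did so in 19 and *Il17rc* in 17 at 7 weeks, and *Il15* in 13 and *Il27* in 11 of 24 at 12 weeks. The *Il4i1* change between ages passed in 15 of 24 and that of *Il27* in 6 of 23. Over all members and settings 78 of 2752 genotype differences changed sign, none of them above 0.11 in size. No member feature sat at the value that many features of an array share. No paired analysis was possible because the mouse numbers of the groups are not shared.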
